A study of Mus musculus with 24 samples.

Results

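Mitochondrial ribosomal protein genes were examined in H3K9ac ChIPmentation data from spheroids of 4T1, a mouse mammary carcinoma cell line. The set held all 78 protein-coding genes of the GENCODE vM21 annotation whose symbol is Mrpl or Mrps followed by a number, of 21755 protein-coding genes on the autosomes and the X chromosome. Of the 78, 51 encode proteins of the large subunit, 26 encode proteins of the small subunit, and Mrps36 carries the family name although its product is now known as a component of the 2-oxoglutarate dehydrogenase complex.

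There were 4 groups of 3 libraries, all from spheroids grown for 5 days. The scramble control carried a non-targeting guide, the CPT1a knockout and the KAT2a knockout carried guides against the gene named, and a further group of CPT1a knockout spheroids received 5 mM acetate. Per the labels, 75 µM palmitate was added in the scramble, CPT1a knockout and KAT2a knockout groups; for the acetate group the labels name acetate alone, while a legend of the study describes these spheroids as grown in palmitate with and without acetate. If palmitate was absent there, every comparison with the acetate group is also one of palmitate, and acetate and palmitate cannot be told apart. The cells of every group, controls included, carried a doxycycline-inducible Cas9 and a lentiviral guide. Which guide a library carried, and whether libraries came from separate cultures, is not given, so the p-values below measure the spread between these libraries. The files hold no RNA or protein, so the knockouts themselves could not be checked here.

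Mitochondrial ribosomes translate the few proteins that mitochondrial DNA still encodes, all of them subunits of the respiratory chain and ATP synthase. Their RNA comes from mitochondrial DNA, but all of their proteins are encoded in the nucleus, translated in the cytosol and imported. Acetylation of lysine 9 on histone H3 (H3K9ac) marks the promoters of transcribed genes. KAT2A is one of the acetyltransferases that place it, and CPT1A brings long-chain fatty acids into mitochondria for oxidation, one source of acetyl-CoA. The comparisons ask whether H3K9ac at these promoters differs when either enzyme is lost, and whether acetate changes it in cells without CPT1a.

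Every one of the 78 genes had an H3K9ac peak within 1 kb of a transcription start site in every one of the 12 libraries. Over all protein-coding genes the share with a peak in all 12 libraries was 49.5%, or 10777 genes. The 78 cytosolic ribosomal protein genes also had a peak in all 12, as did all 61 other genes of mitochondrial translation that were listed (factors, assembly proteins, mitochondrial tRNA synthetases, mitochondrial DNA expression genes and mitoribosome proteins named otherwise). Of 86 oxidative phosphorylation subunit genes, 78 did, and the other 8 had none in any library. Presence of a peak therefore separated none of the groups, and the comparisons rest on how strong and how wide each peak was.

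Peak strength was compared as a rank, because the deposited lists differ in depth. For each gene the promoter peak with the highest fold enrichment over background was taken, and genes with a peak in all 12 libraries were ranked within each library from 0 (weakest) to 100 (strongest). The deposited lists held 16212 to 34370 peaks. The background read number that the peak caller used, recovered from the deposited values and called calling depth here, was lowest at 0.554, in the third CPT1a knockout library, and highest at 2.52, in the first scramble library. Of the 8 epithelial marker promoters checked, 6 had a peak in all 12 libraries, against 1 of 5 fibroblast markers (Pdgfra; Col1a1 had one in 11 libraries), 0 of 4 endothelial markers and 0 of 6 immune markers.

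The promoters of mitochondrial ribosomal protein genes often lay back to back with another gene. A coding gene on the opposite strand started within 1 kb of 33 of the 78 (42.3%), with 30 of these 33 within 200 bp and a median distance of 52 bp. The share was 22.4% among all genes with a peak in all 12 libraries, 21.8% among cytosolic ribosomal protein genes and 41.03% (32 of 78) among oxidative phosphorylation subunit genes with such a peak. Several partners serve mitochondria themselves. Mrpl43 faced Twnk, the mitochondrial DNA helicase, at 116 bp. Mrps12 faced Sars2, the mitochondrial seryl-tRNA synthetase, at 172 bp. Mrpl36 and Mrpl47 faced Ndufs6 and Ndufb5, both subunits of respiratory complex I, at 29 and 20 bp. Mrpl46, of the large subunit, and Mrps11, of the small subunit, faced each other at 30 bp on chromosome 7 and took their values from the same peak, so every count or median below that includes both counts that peak as 2 genes. The peak of such a promoter cannot be assigned to either gene.

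Promoter sequences from RefSeq (build GRCm38.p6) were matched for 65 of the 78 genes, and the 300 bp around the start site (250 before, 50 after) were searched on both strands. The ETS core CCGGAAG was in 23 of 65 (35.4%), against 21.6% of the matched promoters of genes with a peak in all 12 libraries and 13.4% of all matched promoters. The YY1 motif AAGATGGCG was in 5 of 65 (7.69%, against 3.85% and 2.23%) and the NRF1 motif, whose letters are the capitals in the Mrpl9 stretch, in 3 of 65 (4.62%, against 2.57% and 1.57%). The SP/KLF motif GGGGCGGGG was in 12 of 65 (18.5%, against 23.8% and 17.3%), the CCAAT box in 25 of 65 (38.5%, against 40.0% and 38.9%) and the E-box CACGTG in 4 of 65 (6.15%, against 10.8% and 8.65%). A match describes the letters only and shows no binding. Median GC content of the 300 bp was 58.7% in the 65 promoters and 61.7% in those with a peak in all 12 libraries.

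Stretches of 4 promoters are shown because the rank of their peak changed in CPT1a knockout, upward for Mrpl9 and Mrps26 and downward for Mrps33 and Mrpl24. They run toward the start site of the gene, 5′ to 3′ on its own strand, and lie at chr3:94443086-94443335 (plus strand), chr2:130563507-130563756 (plus), chr6:39810969-39811186 (minus) and chr3:87919294-87919525 (plus). Capitals mark the searched motifs: NRF1 in Mrpl9, and in Mrps26 a CCAAT box and an ETS core, both read on the opposite strand. The Mrps33 and Mrpl24 stretches leave out the last 32 and 18 bases before the start site, and no searched motif fell in them. Mrps33 was not without a motif. Within the 300 bp searched it had an ETS core 38 to 44 bp after the start site, beyond the stretch shown.
Mrpl9: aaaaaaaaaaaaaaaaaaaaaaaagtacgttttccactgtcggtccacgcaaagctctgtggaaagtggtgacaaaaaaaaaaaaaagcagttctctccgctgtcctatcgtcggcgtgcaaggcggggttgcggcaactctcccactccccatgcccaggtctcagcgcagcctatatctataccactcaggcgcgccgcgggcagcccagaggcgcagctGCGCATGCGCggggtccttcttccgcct
Mrps26: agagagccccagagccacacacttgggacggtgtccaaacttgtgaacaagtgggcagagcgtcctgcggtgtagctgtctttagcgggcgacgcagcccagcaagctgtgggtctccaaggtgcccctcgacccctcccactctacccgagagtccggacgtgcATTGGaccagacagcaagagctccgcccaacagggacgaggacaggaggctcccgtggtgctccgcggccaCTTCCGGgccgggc
Mrps33: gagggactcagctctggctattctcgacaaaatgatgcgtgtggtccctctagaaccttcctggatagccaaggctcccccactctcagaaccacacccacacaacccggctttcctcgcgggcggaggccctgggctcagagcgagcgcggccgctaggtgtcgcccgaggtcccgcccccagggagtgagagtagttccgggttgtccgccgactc
Mrpl24: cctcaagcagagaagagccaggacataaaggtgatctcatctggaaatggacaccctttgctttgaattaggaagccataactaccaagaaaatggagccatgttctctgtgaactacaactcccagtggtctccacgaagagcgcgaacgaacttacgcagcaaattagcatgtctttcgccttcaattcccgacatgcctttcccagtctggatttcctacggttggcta

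As a family the 78 genes sat in the middle of the peaks. The mean rank over 12 libraries ran from 13.8 to 93.7 with a median of 48.9, against a median of 84.5 for cytosolic ribosomal protein genes, 69.8 for oxidative phosphorylation subunits, 53.4 for the other mitochondrial translation genes and 51.8 for all genes tested. The median over the 78 genes lay between 44.5 and 54.4 in each library. By subunit and ancestry, the median was 46.6 for 30 large subunit proteins with a bacterial counterpart, 49.7 for 21 large subunit proteins found only in mitochondria, 50.03 for 16 small subunit proteins with a bacterial counterpart and 50.4 for 10 found only in mitochondria. These are levels with no test. Genes with an opposite-strand partner had a median rank of 62.1 (33 genes) and those without one 42.8 (45 genes), against 60.8 and 49.0 over all genes tested.

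**Figure D1:**
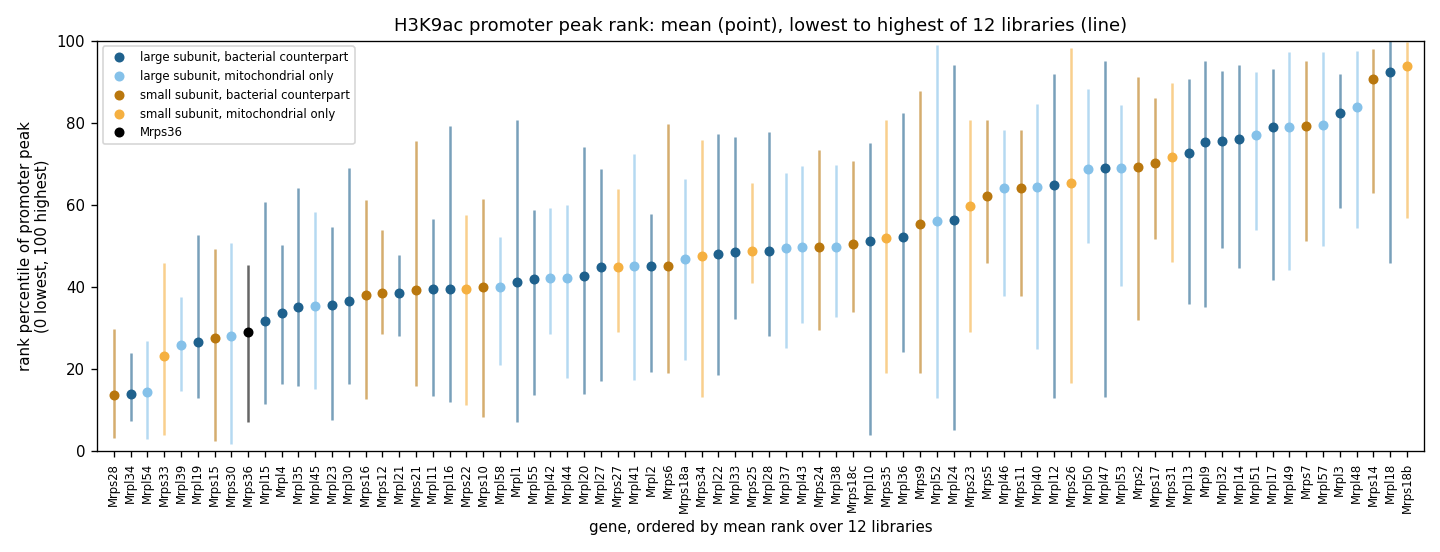
Rank percentile of the promoter peak (vertical axis, 0 to 100) for each of the 78 genes (horizontal axis, ordered by mean), with the mean as a point, the lowest to highest of 12 libraries as a line and the subunit and ancestry of the protein as colour. Means run from 13.8 to 93.7. Apart from Mrps36, which stands alone in its class, the classes are spread along the order.

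The strongest peaks belonged to Mrps18b (mean rank 93.7), Mrpl18 (92.3), Mrps14 (90.7), Mrpl48 (83.8) and Mrpl3 (82.3). Mrps18b and Mrpl18 share their promoters with Ppp1r10, a regulatory subunit of protein phosphatase 1, and Tcp1, a subunit of the cytosolic chaperonin. Even here single libraries fell far below the rest. Mrpl18 ranked 96.1, 99.0 and 98.2 in scramble, 45.9, 95.6 and 93.7 in CPT1a knockout, 99.6, 99.4 and 99.2 with acetate, and 98.7, 82.4 and 99.8 in KAT2a knockout. Mrps18b ranked between 91.6 and 99.6 in 11 libraries and 56.7 in KAT2a knockout replicate 1.

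The weakest belonged to Mrps28 (13.8), Mrpl34 (14.0), Mrpl54 (14.5), Mrps33 (23.3) and Mrpl39 (25.8). Mrpl34 stayed between 7.27 and 24.0 in all 12 libraries. The spread within a gene was otherwise wide: the median SD over 12 libraries was 14.2 rank points, against 14.0 over all genes tested.

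Genes picked by role showed the same range. Mrpl12, whose product forms the stalk that recruits translation factors, had a mean rank of 64.9 (13.0 to 91.8). Mrps12, part of the decoding site, had 38.5 (28.6 to 53.8). Mrpl58, a peptidyl-tRNA hydrolase that rescues stalled ribosomes, had 40.0 (21.0 to 52.1). Mrpl44, which has an RNase III-like fold, had 42.3 (17.9 to 60.03), and Mrps34, a small subunit protein without a bacterial counterpart, had 47.5 (13.3 to 75.9). Mrps36 had 29.0 (7.03 to 45.3). None of these 6 passed the test of rank in any comparison.

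Peaks centred close to the start site. The summit lay within 500 bp of a start site for 75 of 78 genes (82.2% of all genes tested) and downstream of the nearest start for 60 of 78 (78.4% of all genes tested). Mean peak width ran from 1021 bp at Mrpl45 to 4676 bp at Mrps18b, with a median of 1928 bp against 2154 bp over all genes tested. The widest after Mrps18b were Mrps34 (4325 bp) and Mrpl13 (4187 bp), all 3 at back-to-back promoters, and the narrowest after Mrpl45 were Mrpl39 (1136 bp) and Mrps33 (1162 bp).

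In CPT1a knockout against scramble, the rank of 7 of the 78 genes changed: Mrpl9 and Mrps26 rose, and Mrpl1, Mrpl24, Mrpl30, Mrps28 and Mrps33 fell. That is close to the background, since 10.0% of all 10777 genes passed the same test (4.77% up and 5.24% down; limma, Benjamini-Hochberg adjusted p under 0.05). With the trend of rank on GC content removed, 3 genes were higher and 0 lower (8.38% of all genes), so all 5 downward calls were lost. The median difference was -1.44 rank points over the 78 genes and 0.22 over all genes. Its sign was not stable: it was 4.87 with the GC trend removed (0.05 over all genes) and ran from -3.21 to 1.52 when 1 library was left out.

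Mrps26, a small subunit protein found only in mitochondria, moved most. It ranked 16.6, 48.2 and 25.3 in scramble and 93.5, 88.9 and 96.6 in CPT1a knockout, a difference of 63.0 points (SE 14.7, limma adjusted p = 0.0168). All 3 knockout libraries lay above all 3 scramble libraries. With acetate it ranked 88.4, 98.2 and 47.3, and in KAT2a knockout 88.8, 54.4 and 39.0, and both of those groups overlapped scramble. Mrpl9, a large subunit protein with a bacterial counterpart, ranked 42.2, 69.1 and 35.1 in scramble and 90.7, 73.4 and 88.7 in CPT1a knockout (difference 35.5, SE 10.4, limma adjusted p = 0.0422).

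Among the genes that fell, Mrpl24 ranked 94.0, 69.5 and 84.1 in scramble and 54.1, 28.4 and 5.15 in CPT1a knockout (difference -53.3, SE 15.4, limma adjusted p = 0.0398). Mrpl1, counterpart of the bacterial protein of the L1 stalk, ranked 66.7, 80.6 and 61.1 against 15.5, 37.2 and 7.10 (difference -49.5, SE 10.4, limma adjusted p = 0.0101). Mrpl30, at the promoter it shares with Mitd1, ranked 69.0, 62.4 and 59.0 against 16.4, 31.5 and 35.6 (difference -35.6, SE 8.95, limma adjusted p = 0.0229). In each of these genes the lowest scramble library stood above the highest knockout library. The genes were picked by a test on these same libraries, so that separation adds no support to the calls.

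The remaining pair started low. Mrps33 ranked 45.9, 37.5 and 38.3 in scramble and 19.6, 15.6 and 7.83 in CPT1a knockout (difference -26.2, SE 6.37, limma adjusted p = 0.0202). Mrps28 ranked 29.7, 27.2 and 20.6 in scramble and 7.57, 9.72 and 12.05 in CPT1a knockout (difference -16.1, SE 3.43, limma adjusted p = 0.0108). With the calling depth of each library in the fit, an alternative added after seeing the data, Mrps28 was the one gene of the 7 still called (adjusted p = 0.0319), beside 3.86% of all genes. Leaving out scramble replicate 1, the deepest library, left a count of 2 (4.59% of all genes), leaving out CPT1a knockout replicate 3, the shallowest, a count of 3 (5.97%), and leaving out scramble replicate 3 a count of 4 (4.62%).

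**Figure D2:**
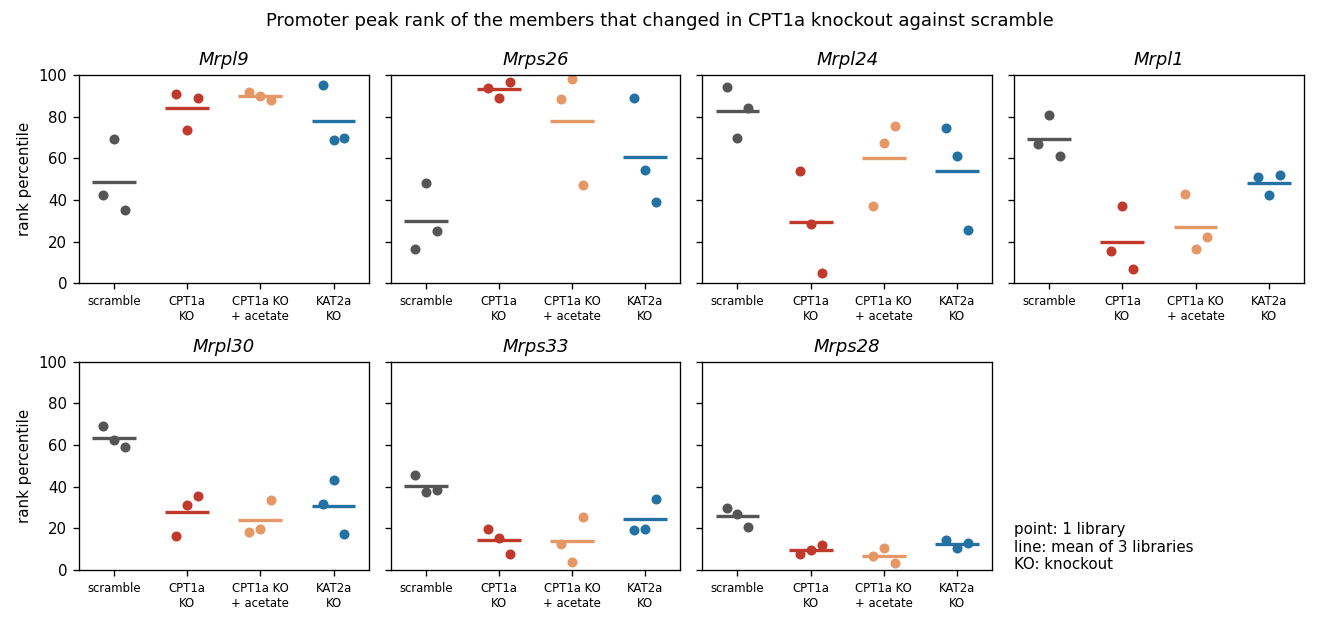
Rank percentile (vertical axis, 0 to 100) of the 7 genes that changed in CPT1a knockout against scramble, 1 panel per gene, with a point for each library of the 4 groups (horizontal axis) and a line for the mean of 3. The points of CPT1a knockout without acetate do not overlap the scramble points in any panel, and the genes were picked by that comparison. Points of the other groups overlap scramble in some panels, among them Mrps26.

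No effect of acetate on rank was detectable among these genes in CPT1a knockout spheroids. Between CPT1a knockout with and without acetate, the rank of 0 of the 78 genes changed, against 0.0464% of all genes (5 of 10777, with 0.0278% higher and 0.0186% lower). An unadjusted limma p under 0.05 was found for 1 of the 78, against 9.10% of all genes. The smallest limma adjusted p among the 78 was 0.374. The median difference was 1.10 points over the 78 genes and -0.48 over all genes.

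Against scramble, the acetate group showed 5 of 78 genes changed, 1 higher and 4 lower, against 5.56% of all genes (1.66% higher and 3.90% lower). It shares its scramble libraries with the comparison of CPT1a knockout, so its calls are no independent repeat of those. With the GC trend removed 1 gene was higher and 0 lower (4.38% of all genes), so all 4 downward calls were lost. The median difference was 1.04 points over the 78 genes and 0.15 over all genes. Its sign was not stable. It was 3.41 with the GC trend removed, -0.98 with calling depth in the fit and -2.13 when genes were ranked by −log10 p. Mrpl9 ranked 91.8, 90.1 and 87.9 with acetate (difference 41.1, SE 10.4, limma adjusted p = 0.0344). Mrpl1 ranked 42.9, 16.6 and 22.2 (difference -42.2, SE 10.4, limma adjusted p = 0.0315). Mrpl30 ranked 18.5, 19.9 and 33.8, Mrps33 12.5, 3.97 and 25.7, and Mrps28 6.71, 10.7 and 3.28, with limma adjusted p = 0.0210, 0.0277 and 0.00766. All 5 groups of 3 stood apart from scramble without overlap. Because the 5 genes were picked by a test on these same libraries, that adds no support, and the share among all genes was not computed. With calling depth in the fit 1 of the 5 was called, Mrps28 (adjusted p = 0.0319), and the count was 1 without scramble replicate 1 or acetate replicate 2 (2.41% and 1.40% of all genes), 2 without acetate replicate 1 (2.01%) and 3 without scramble replicate 3 (2.89%).

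In KAT2a knockout against scramble, again with the same controls, the rank of 1 gene changed, against 4.41% of all genes (1.70% higher and 2.71% lower). Mrps28 ranked 14.5, 10.7 and 13.0 (difference -13.1, SE 3.43, limma adjusted p = 0.0438), all below the 3 scramble libraries. The call was lost under 16 of 26 alternatives, among them the fit with calling depth and the fits without any one KAT2a knockout library or without scramble replicate 1 or 2, CPT1a knockout replicate 2 or any one acetate library; without CPT1a knockout replicate 1 or 3 the count was 2. The median difference was -3.69 points over the 78 genes, against 0.10 over all genes, with 42 of the 78 genes and 5353 of all 10777 below 0. It was 2.51 with the GC trend removed and -0.0499 without KAT2a knockout replicate 1.

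Peak width differed more. In CPT1a knockout the peak was narrower than in scramble at 34 of the 78 genes and wider at 1, so 35 changed, against 26.4% of all genes (25.1% narrower and 1.39% wider). The count was 4, all narrower (2.79% of all genes), when only these 2 groups were fitted, and 69, all narrower (72.9% of all genes), when peaks within 500 bp of each other were merged. The median difference was -0.60 on the log2 scale over the 78 genes and -0.38 over all genes. Of the 21 large subunit proteins found only in mitochondria 14 had a narrower peak, of the 30 with a bacterial counterpart 13, of the 16 small subunit proteins with a bacterial counterpart 6 and of the 10 found only in mitochondria 1. These counts were not tested against each other.

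Mrpl13, a large subunit protein with a bacterial counterpart, had a narrower peak in all 3 groups than in scramble. Its peak was 7179, 5983 and 6031 bp wide in scramble, 3345, 3691 and 2920 bp in CPT1a knockout, 3446, 3606 and 3812 bp after acetate, and 3548, 3684 and 2997 bp in KAT2a knockout. All 9 libraries of the other groups lay below all 3 scramble libraries. The log2 difference from scramble was -0.95 (SE 0.15, limma adjusted p = 0.00545), -0.82 (SE 0.15, adjusted p = 0.0257) and -0.91 (SE 0.15, adjusted p = 0.0196), in that order. Its promoter is shared with Mtbp, which starts 13 bp away.

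Other peaks narrowed in CPT1a knockout as well. Mrpl52 measured 9236, 2306 and 2492 bp in scramble and 1599, 1587 and 1396 bp in CPT1a knockout (log2 difference -1.30, SE 0.41, limma adjusted p = 0.0366), with 1 scramble library far above the others. Mrpl24 measured 2548, 2050 and 2313 bp against 1186, 1099 and 969 bp (-1.09, SE 0.25, limma adjusted p = 0.0116). Mrps31 measured 3891, 2421 and 3126 bp against 1511, 1628 and 1380 bp (-1.04, SE 0.20, limma adjusted p = 0.00723). The peak shared by Mrpl46 and Mrps11 measured 5122, 3758 and 4000 bp against 2366, 2214 and 1755 bp (-1.02, SE 0.21, limma adjusted p = 0.00776). The Mrpl9 peak, which rose in rank, narrowed from 3611, 2658 and 3427 bp to 2077, 1918 and 980 bp (-1.02, SE 0.26, limma adjusted p = 0.0148).

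Mrpl30 was the exception, with a wider peak in all 3 groups than in scramble. It measured 1525, 971 and 1627 bp in scramble, 2254, 2525 and 2064 bp in CPT1a knockout, 2546, 2366 and 2682 bp with acetate and 2863, 2728 and 2429 bp in KAT2a knockout. The log2 differences were 0.76, 0.92 and 0.99 (SE 0.20 each, limma adjusted p = 0.0171, 0.0308 and 0.0337). The direction depended on how peaks were counted: once peaks within 500 bp of each other were merged, the same 3 differences were -0.65, -0.40 and -0.42. A promoter of the 78 genes held 1.53 peaks on average in scramble against 1.19 in CPT1a knockout, 1.29 when acetate was added and 1.23 in KAT2a knockout, and over all genes tested the means were 1.67, 1.25, 1.38 and 1.30.

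Against scramble, 6 of 78 widths changed with acetate, 5 narrower and 1 wider (7.03% of all genes, 6.25% narrower and 0.779% wider). In KAT2a knockout 2 of 78 changed, 1 each way (3.89% of all genes, 2.91% narrower and 0.974% wider). With acetate the peaks of Mrpl13, Mrpl45, Mrpl46 with Mrps11, and Mrps30, whose protein sits in the large subunit despite its name, narrowed, and that of Mrpl30 widened. Mrpl45 measured 1634, 1211 and 1713 bp in scramble and 756, 729 and 956 bp with acetate (-0.90, SE 0.23, limma adjusted p = 0.0404). Mrps30 measured 2066, 1897 and 2216 bp against 1087, 1166 and 1134 bp (-0.87, SE 0.21, limma adjusted p = 0.0375). In KAT2a knockout the 2 were Mrpl13 and Mrpl30. The median log2 differences were -0.35 with acetate and -0.31 in KAT2a knockout, against -0.26 and -0.16 over all genes. Between CPT1a knockout with and without acetate, 0 of 78 widths changed (0% of all genes by limma). An unadjusted limma p under 0.05 was found for 3 of the 78, against 2.26% of all genes. The median log2 difference there was 0.18 over the 78 genes and 0.13 over all genes.

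**Figure D3:**
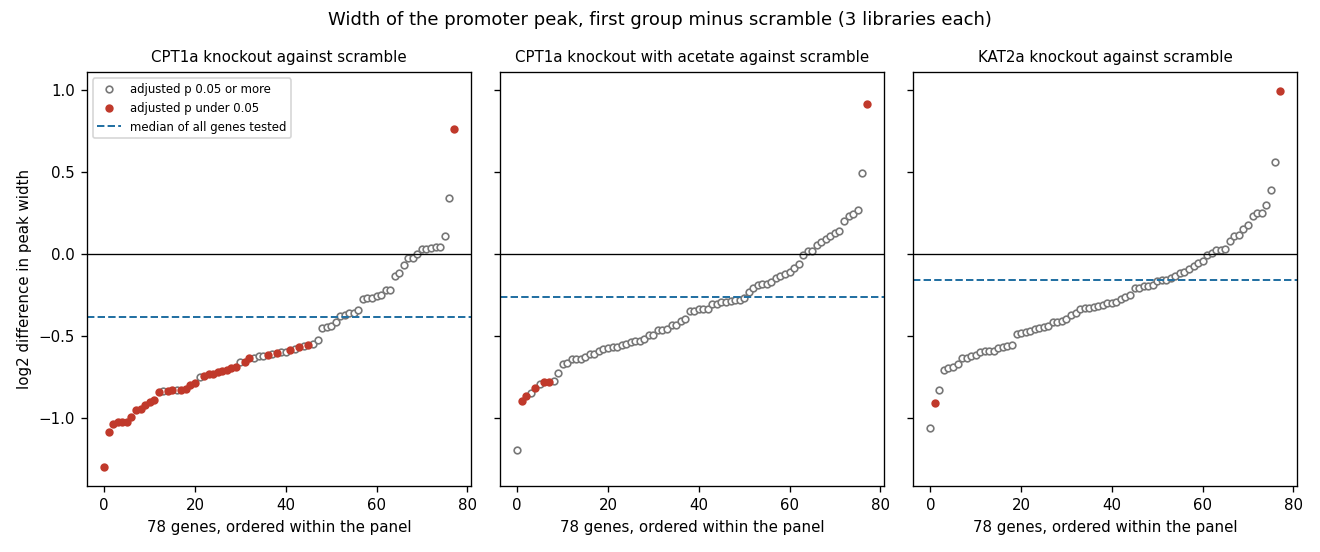
Log2 difference in promoter peak width from scramble (vertical axis) for the 78 genes ordered within each panel (horizontal axis), with filled points for limma adjusted p under 0.05, and a dashed line at the median of all genes tested. Filled points number 35, 6 and 2 from left to right, and the single filled point above 0 in every panel is Mrpl30.

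Width moved with calling depth. The median width of the 78 peaks was 2790 bp in scramble replicate 1 (calling depth 2.52), 1964 and 2072 bp in the other scramble libraries (1.87 and 1.90), 1256 bp in CPT1a knockout replicate 3 (0.554) and 1543 bp in acetate replicate 2 (0.660). The remaining 7 libraries lay between 1620 and 2092 bp at depths of 1.02 to 1.91. With calling depth in the fit, 18 of 78 widths were called in CPT1a knockout (21.6% of all genes), 7 with acetate (11.9%) and 9 in KAT2a knockout (16.7%). The median log2 differences were then -0.26, -0.06 and -0.10, against -0.04, 0.06 and 0.09 over all genes. Without CPT1a knockout replicate 3 the counts were 15, 18 and 10 (13.4%, 15.5% and 9.29% of all genes), and without scramble replicate 1 they were 19, 3 and 3 (14.5%, 2.25% and 2.29%). Leaving out any other 1 library also moved the acetate count by over 1.5 times, except KAT2a knockout replicate 3, and the KAT2a count, except acetate replicate 2. Mrpl13 was called in all 3 comparisons with calling depth in the fit (adjusted p = 0.00517, 0.0108 and 0.00347), and Mrpl9 was not called.

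**Figure D4:**
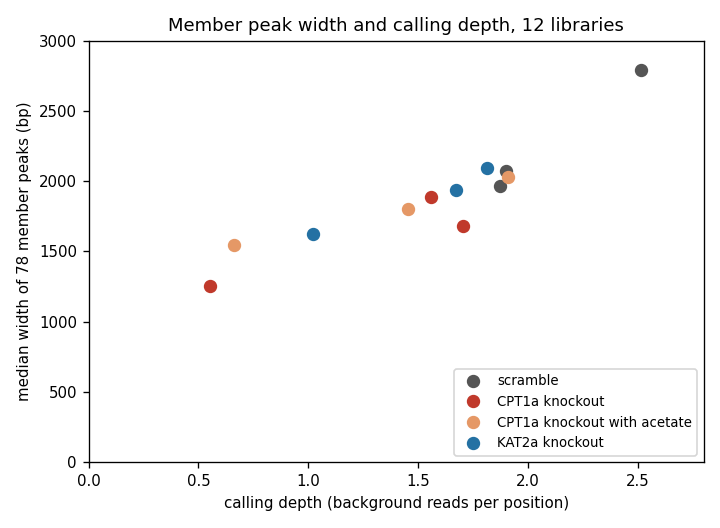
Median width in bp of the 78 promoter peaks (vertical axis) against calling depth in background reads per position (horizontal axis), 1 point per library, coloured by group. The point at 0.554 has the lowest median, 1256 bp, and the point at 2.52 the highest, 2790 bp.

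At 39 of the 78 genes neither measure was called in any comparison with scramble, which does not show that they were unchanged. Both measures were called at Mrpl9, Mrpl24 and Mrpl30, all of the large subunit with a bacterial counterpart. The matching shares over all genes were not computed, so these counts cannot be set against the background. Among the 61 other mitochondrial translation genes, 6 changed in rank in CPT1a knockout (1 up, 5 down). With acetate 3 did (3 down) and in KAT2a knockout 4 (4 down), so the shares were 9.84%, 4.92% and 6.56%. In width 29, 11 and 8 changed (47.5%, 18.0% and 13.1%). Over all genes tested the shares were 10.0%, 5.56% and 4.41% in rank and 26.4%, 7.03% and 3.89% in width. Of the 78 mitochondrial ribosomal protein genes, 44.9% changed in width in CPT1a knockout. The 78 cytosolic ribosomal protein genes had 2, 0 and 1 changed in rank (2.56%, 0% and 1.28%) and 19, 3 and 3 in width (24.4%, 3.85% and 3.85%). The 78 oxidative phosphorylation genes tested had 4, 3 and 4 in rank (5.13%, 3.85% and 5.13%) and 33, 8 and 2 in width (42.3%, 10.3% and 2.56%).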

How the data were processed

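H3K9ac ChIPmentation was analysed in 12 libraries; the 12 input libraries were not analysed here. Per the labels and their processing notes, the authors used Bowtie2, SAMtools, deepTools and MACS2 with builds mm10 and dm6, while the methods name another aligner; versions were not used. Labels and methods also name different antibody catalogue numbers. The Drosophila spike-in was not used.

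The deposited peak lists, called per library, give the ratio (fold enrichment) at each summit, −log10 p and −log10 q values and a score of 10 times −log10 q; every deposited peak had q under 0.01. From these the background read number was recovered by inverting the caller's Poisson p, tested on 6 simulated peak lists.

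Promoters were windows of 1 kb around GENCODE vM21 start sites. Rank percentiles and log2 widths were fitted with limma 3.58.1 in R 4.3.3 (4 groups, trended prior, Benjamini-Hochberg over 10777 genes, threshold 0.05). In simulated data at the real spread, with 200 of 10777 genes shifted in CPT1a knockout against scramble, 3% of genes starting between ranks 35 and 65 were recovered at a shift of 45 points and 0% at 30 points. When the starting ranks were instead drawn below 55, 53% and 26.5% were recovered. With 2000 genes shifted 45 points, 16.6% of calls were false. A missed call for a gene of middle rank therefore says little. For 3 against 3 the smallest exact permutation p is 0.1.

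Genes were named by rule: the rank calls, up to 5 width calls per comparison, the 5 highest and 5 lowest ranks, the 3 widest and 3 narrowest peaks, and 6 by role. The members and lists were chosen with earlier results of these data known.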

Additional observations from a re-analysis of the deposited data

How the results depend on the processing

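Of 13 rank calls of named genes none survived every alternative, and of 21 width calls 2 did (Mrpl24 and Mrpl46 in CPT1a knockout). Calling depth, 0.554 in the shallowest library, may limit both measures, which was not tested. With depth in the fit, the rank counts against scramble fell. The width count fell in CPT1a knockout but rose in KAT2a knockout and with acetate. Counts are of the 78 genes, with the share of all genes in parentheses, for CPT1a knockout, KAT2a knockout and acetate, each against scramble; between acetate and CPT1a knockout the alternatives moved no median by more than the spread between libraries. Unless stated, the cause was not tested.

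Rank counts were 3, 0 and 1 with the GC trend removed (8.38%, 3.24% and 4.38%; 3 and 1 higher, 0 lower; median differences 4.87, 2.51 and 3.41), 1, 0 and 1 with calling depth as a covariate (3.86%, 1.48% and 1.06%; added after seeing the data; acetate median -0.98), 26, 19 and 17 when ranked by −log10 p (31.9%, 21.6% and 23.7%; KAT2a median -1.07, acetate -2.13), 4, 0 and 1 for quantile-normalized log2 fold enrichment (8.66%, 2.65% and 3.97%), and 1, 0 and 2 with only the 2 groups compared (2.25%, 0% and 3.96%), where fewer libraries set the spread. The KAT2a count was also 2 with lists of equal length (4.30%), 2 with peaks within 500 bp merged (4.35%), 0 with a peak in at least 1 library (4.95%), 2 in a 2 kb window (4.32%, median -0.97) and 3 with the summit in the window (5.17%). Width counts were 69, 44 and 55 with peaks merged (72.9%, 44.6% and 49.5%; KAT2a median -0.58), 4, 0 and 0 with only the 2 groups compared (2.79%, 0.121% and 0%), and 18 and 13 in the knockouts as width percentiles (13.2% and 10.3%). With calling depth they were 18, 9 and 7 (21.6%, 16.7% and 11.9%). The medians were then -0.26 in CPT1a knockout and -0.0593 with acetate, against -0.0394 and 0.0574 over all genes. Merging turned 6 named widths: Mrpl30 (-0.65, -0.42 and -0.40), Mrpl39 (-0.59) and Mrps26 (-0.49) in KAT2a knockout, and Mrps12 with acetate (-0.40).

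Same-numbered libraries did not deviate together (correlations -0.04 to 0.07), so the numbers do not pair them; with the replicate block the KAT2a counts were 0 in rank (3.14%) and 1 in width (0.418%), and the acetate width count was 2 (2.58%).

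Leaving out 1 library gave rank counts of 2 to 7, 0 to 2 and 1 to 5, width counts of 15 to 35, 0 to 10 and 0 to 18, median rank differences of -3.21 to 1.52, -4.14 to -0.0499 and -1.17 to 2.63, and median width differences of -0.71 to -0.44, -0.39 to -0.18 and -0.45 to -0.25; for acetate against CPT1a knockout these were 0, 0, -0.13 to 1.22 and 0.04 to 0.27.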
